A study of Mus musculus with 15 samples.

Results

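Cells recognise foreign or misplaced nucleic acids in the cytosol with a small set of proteins, and the transcripts of 10 genes of this system were followed here in mouse whole blood. The genes were taken by symbol from the deposited table of 55536 genes: Ddx58, Ifih1, Dhx58 and Ddx60, Zbp1 and Eif2ak2, Mavs and Tmem173, Adar and Samhd1. All 10 were in the table and all 10 passed the filter on low counts, which left 13364 genes. The blood came from male C57Bl/6 mice aged 10 months. The 8 TBT animals had mothers given tributyltin (TBT), an organotin, in the drinking water until weaning, at a daily dose of 0.5 mg per kg of body weight, or 3.07 µM in the water. The exposure of the other 7 animals is labelled vehicle. A liver tumor is noted for 1 animal, vehicle 3. Litters are not given in the labels, so p-values measure the spread between these animals, some of which may be siblings.

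RIG-I and MDA5, the products of Ddx58 and Ifih1, are helicases that bind viral or self double-stranded RNA and signal through the mitochondrial adaptor MAVS. Cytosolic DNA is read by cGAS, whose cyclic dinucleotide product activates STING, the product of Tmem173. Both routes lead to type I interferon, which in turn induces many of the sensors, so that their transcripts in blood leukocytes are commonly used as signs of interferon exposure. ADAR1 and SAMHD1 work at the other end, by editing self RNA and by breaking down nucleotides.

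Interferon acts on such genes through the interferon-stimulated response element, and the RefSeq promoter table (GRCm38.p6) held windows for 7 of the 10 genes, each from 250 bases before to 50 after a transcript start. The element was searched on both strands as GAAANNGAAA (N, any base), and as the shorter GAAANNGAA, which every longer match also contains. The longer form was present in the windows of Ddx58, Ifih1, Eif2ak2 and Ddx60, 4 of the 7 genes, against 3.44% of all 32851 windows and 4.10% of the tested genes with a window. These matches are shown because the genes that carry them include 3 of the 4 with the lowest p below. The remaining gene of these 4, Zbp1, had no window and was not searched, and neither were Dhx58 and Tmem173. The choice followed the p-values, so it carries no test of the contrast. Each 30-base stretch runs 5′ to 3′ along the gene's own strand, with the matching letters in capitals; in Ddx58 the match lies on the opposite strand.
Ddx58 (chr4:40239804-40239833): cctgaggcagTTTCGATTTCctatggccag
Ifih1 (chr2:62646206-62646235): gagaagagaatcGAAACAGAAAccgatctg
Eif2ak2 (chr17:78882535-78882564): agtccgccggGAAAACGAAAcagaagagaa
Ddx60, first match (chr8:61928024-61928053): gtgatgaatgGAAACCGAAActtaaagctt
Ddx60, second match (chr8:61928058-61928087): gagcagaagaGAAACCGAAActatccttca
Adar, window inside the gene (chr3:89730738-89730767): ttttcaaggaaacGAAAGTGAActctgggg

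Ddx60 held 2 copies, which begin 53 and 19 bases before the start. Its 250 bases up to the start (chr8:61927837-61928086, plus strand) are printed whole to show both copies in place.
Ddx60: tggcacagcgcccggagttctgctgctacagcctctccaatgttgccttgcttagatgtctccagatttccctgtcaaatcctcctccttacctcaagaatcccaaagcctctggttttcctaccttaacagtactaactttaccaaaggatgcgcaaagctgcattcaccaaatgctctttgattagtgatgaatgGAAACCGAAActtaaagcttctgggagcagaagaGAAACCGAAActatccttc
Adar has 3 windows, of which 2 held neither form and 1, inside the gene, held the shorter form only. That window held 2 matches, of which 1 is printed. Ifih1 and Eif2ak2 each held a further match of the shorter form, which is not printed. Mavs and Samhd1 had no match of either form in their windows. Over all 9387 tested genes with a window, the 385 with the longer form had a median log2 fold change of 0.09 (TBT over vehicle) and 67.8% were higher in TBT, beside 0.03 and 57.2% for the 9002 without it. The 385 genes include the 4 sensor genes with the longer form, and IFIT and OAS genes that are described below. The difference between genes with and without the longer form was not tested. A match describes letters in a window and does not show that a factor binds there.

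The libraries held about 6031530 to 11985300 gene counts, and the 10 genes were read with 17 to 6017 counts each. In the vehicle libraries haemoglobin took 28.9% to 44.1% of the counts, with vehicle 4 the highest. TBT 2 and TBT 8 stood apart within the TBT group. Haemoglobin took 50.8% and 44.5% of their counts, beside 28.8% to 37.1% in the other 6 TBT libraries. Their summed platelet markers (10 genes, in TMM-scaled CPM, counts relative to the library size) were 15450 and 15426, beside 2573 to 4595, but 6228 and 8121 in CPM of all counts, beside 2765 to 6453, so that most of this gap came with the scaling. The sensor genes together took 0.0204% and 0.0224% of the counts in these libraries, beside 0.0662% to 0.0944% in the other TBT and 0.0352% to 0.0898% in the vehicle libraries. TMM scaling, which sets the level of most genes equal between libraries, gave them factors of 0.404 and 0.528. Their CPM values below were therefore raised most. Of the vehicle libraries, vehicle 6 had the lowest factor, 0.736. Blood cell types are not separated in these libraries, so more cells of a type and more RNA per cell cannot be told apart.

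Compared per length of exon in vehicle blood, as RPKM (TMM-scaled CPM divided by the exon length in kilobases), Samhd1 was by far the most abundant of the 10, at 35.7 ± 4.48 (SD, n = 7). Tmem173 followed at 7.37 ± 0.289 RPKM and Ddx58 at 6.94 ± 0.915 RPKM, with Tmem173 above Ddx58 in 5 of 7 vehicle libraries and in 2 of 8 TBT libraries. Adar, Mavs and Zbp1 formed a middle group at 5.30 ± 0.981, 5.18 ± 0.909 and 4.87 ± 1.52 RPKM, neighbours that did not differ beyond their spread. Eif2ak2 stood at 3.74 ± 0.793 RPKM. The lowest were the helicase genes Dhx58 at 2.38 ± 0.947, Ifih1 at 1.91 ± 0.634 and Ddx60 at 1.52 ± 0.514 RPKM. Dhx58 was above Ifih1 in 7 of 7 vehicle and 5 of 8 TBT libraries, and Ifih1 above Ddx60 in 6 of 7 and 7 of 8.

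**Figure D1:**
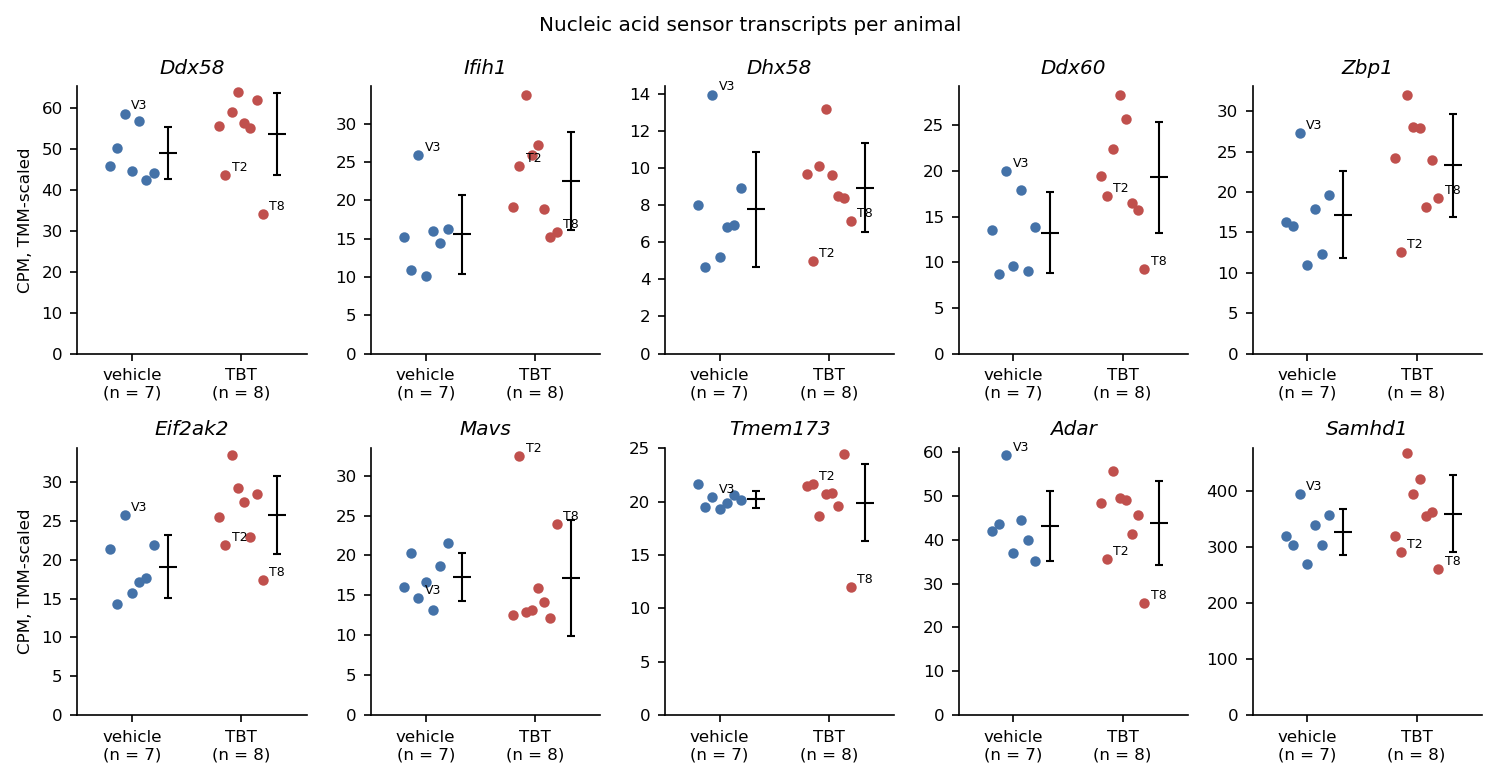
TMM-scaled CPM of each gene (y axis, from 0) in 7 vehicle and 8 TBT libraries, 1 point per animal, with the mean and SD of each group as a bar beside the points. The labels mark vehicle 3 (V3), TBT 2 (T2) and TBT 8 (T8); Ifih1, Zbp1, Eif2ak2 and Ddx60 lie higher in most TBT animals, and Mavs is highest in TBT 2 and TBT 8 on this scale, but lowest of the TBT group there in CPM of all counts.

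The effect of maternal exposure on these transcripts at 10 months was read from the 8 TBT against the 7 vehicle libraries. Eif2ak2, Ifih1, Ddx60 and Zbp1 were 1.36 to 1.46 times as high in TBT as in vehicle blood, and Ddx58, Dhx58 and Samhd1 1.10 to 1.16 times. Mavs, Tmem173 and Adar differed by log2 fold changes between -0.04 and 0.03. No sensor gene passed the test over all genes (edgeR quasi-likelihood test, Benjamini-Hochberg adjusted p from 0.703 to 0.995), and edgeR called 0 of 13364 genes (0%), with 846 at an unadjusted p under 0.05. DESeq2 called 13 genes and limma-voom with sample weights 22, none of them a sensor gene. At an unadjusted p under 0.05 in edgeR there were 4 of the 10 genes, all higher in TBT, beside 6.33% of all tested genes in either direction and 4.57% higher. Of the 10, 8 had a positive log2 fold change, beside 59.4% of all genes tested, with a median of 0.18 beside 0.05. In 5 genes (Ifih1, Dhx58, Zbp1, Eif2ak2 and Ddx60) at least 7 of 8 TBT libraries lay above the vehicle median, which held for 12.8% of all genes tested. The 10 genes were chosen with earlier results of these data known, so these counts beside all genes describe and carry no test. The groups overlapped in every one of the 10 genes, as they did in all but 15 of the 13364 genes tested.

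Ddx58 (ENSMUSG00000040296, GRCm38 chromosome 4, 40203773 to 40239828), which encodes the sensor of 5′-triphosphate RNA, ran from 33.9 CPM in TBT 8 through a median of 55.8 to 63.8 CPM in TBT 4. In vehicle blood the lowest, median and highest values were 42.4, 45.8 and 58.6 CPM. All TBT libraries but TBT 2 and TBT 8 lay above the vehicle median. The means were 53.6 ± 10.01 (SD, n = 8) and 48.9 ± 6.45 CPM (SD, n = 7). Its log2 fold change was 0.13 (SE 0.126, edgeR adjusted p = 0.949), less than the spread between animals, and 0.08 without TBT 4.

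Ifih1 (ENSMUSG00000026896, chromosome 2, 62595798 to 62646255) encodes MDA5, which binds long double-stranded RNA. It ran from 15.2 CPM (TBT 7) through a median of 21.8 to 33.8 CPM (TBT 3) in TBT blood, and from 10.2 through 15.2 to 26.0 CPM in vehicle blood. Of the 8 TBT libraries, 7 lay above the vehicle median and 3 above the highest vehicle library, vehicle 3. The log2 fold change was 0.53 (SE 0.203, 95% interval 0.10 to 0.96), the means 22.6 ± 6.42 and 15.6 ± 5.18 CPM, and the edgeR p 0.0180 (adjusted p = 0.727). With each library left out in turn it stayed between 0.42 (without TBT 3) and 0.69 (without vehicle 3).

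Dhx58 (ENSMUSG00000017830, chromosome 11, 100694884 to 100704271) encodes LGP2, a helicase without signalling domains that tunes the other RNA helicases. Its lowest, median and highest values were 4.96, 9.05 and 13.1 CPM in TBT and 4.65, 6.93 and 13.9 CPM in vehicle blood, so that the highest value of all belonged to vehicle 3. The log2 fold change of 0.21 (SE 0.218, edgeR adjusted p = 0.960) was 0.41 without vehicle 3, 0.10 without TBT 4 and 0.12 without vehicle 2. An antisense gene, Dhx58os, overlaps the locus, and its reads could not be told apart from those of Dhx58 where the counting ignored strand.

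Ddx60 (ENSMUSG00000037921, chromosome 8, 61928087 to 62038244), an interferon-induced helicase reported to assist RIG-I, had the largest fold change of the 10. It ran from 9.26 CPM (TBT 8) through 18.3 to 28.3 CPM (TBT 4) in TBT blood and from 8.71 through 13.6 to 19.98 CPM in vehicle blood. TBT 8 was the only TBT library under the vehicle median. The log2 fold change was 0.55 (SE 0.225, 95% interval 0.07 to 1.02) with an edgeR p of 0.0266 (adjusted p = 0.731), and it was 0.43 without TBT 4.

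Zbp1 (ENSMUSG00000027514, chromosome 2, 173206612 to 173218923) encodes a sensor of left-handed Z-form nucleic acids that triggers necroptosis through RIPK3. Its values were 12.6 CPM at the lowest (TBT 2), 24.1 at the median and 32.1 CPM at the highest (TBT 3) in TBT blood, and 10.96, 16.3 and 27.3 CPM in vehicle blood. In 7 of 8 TBT libraries it was above the vehicle median. The log2 fold change was 0.45 (SE 0.198, 95% interval 0.03 to 0.86) with an edgeR p of 0.0361 (adjusted p = 0.743).

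Eif2ak2 (ENSMUSG00000024079, chromosome 17, 78852564 to 78882573) encodes PKR, the kinase that halts translation by phosphorylating eIF2 alpha when it meets double-stranded RNA. It had the smallest p of the 10. TBT values ran from 17.4 CPM (TBT 8) through a median of 26.5 to 33.5 CPM (TBT 3), and vehicle values from 14.3 through 17.7 to 25.8 CPM (vehicle 3). Only TBT 8 lay under the vehicle median, and 4 TBT libraries lay above every vehicle library. The means of 25.8 ± 5.04 (SD, n = 8) and 19.1 ± 4.05 CPM (SD, n = 7) gave a log2 fold change of 0.44 (SE 0.145, 95% interval 0.14 to 0.74). Its edgeR p of 0.00707 ranked 133rd of 13364 genes (adjusted p = 0.703). A lincRNA and a ribosomal RNA gene model lie on the opposite strand within the locus.

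Both adaptors had estimates close to no difference, and they varied between animals in different ways. Mavs (ENSMUSG00000037523, chromosome 2, 131234063 to 131248025) ran from 12.2 through 13.7 to 32.4 CPM in TBT and from 13.1 through 16.7 to 21.6 CPM in vehicle blood. TBT 2 (32.4 CPM) and TBT 8 (23.9 CPM) were above every vehicle library on the TMM scale, while the other 6 TBT libraries held 12.2 to 15.9 CPM, all under the vehicle median. In CPM of all counts the order was the reverse: TBT 2 (13.1) and TBT 8 (12.6) were under the other 6 TBT libraries (13.9 to 20.5) and under every vehicle library (13.5 to 20.8). The log2 fold change was -0.04 (95% interval -0.46 to 0.38, edgeR adjusted p = 0.994). Without TBT 2, TBT 8 and vehicle 6 it was -0.34 (edgeR adjusted p = 0.162), so the value depended on these libraries.

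On the TMM scale Tmem173 (ENSMUSG00000024349) varied least of the sensor genes in vehicle blood, with 19.3 to 21.6 CPM. Its coefficient of variation was 3.92%, beside 12.5% to 39.8% for the other 9. These values rest on 115 to 294 counts per vehicle library. Vehicle 3 and vehicle 4, with similar totals of 10601000 and 10778300 gene counts, held 294 and 167 counts of Tmem173. The narrow spread therefore holds for the TMM scale only, and the spread in CPM of all counts was not measured. In TBT blood it ran from 11.96 through 20.7 to 24.4 CPM, with TBT 8 at the low end far from the next library. The log2 fold change was -0.02 (95% interval -0.26 to 0.22, edgeR adjusted p = 0.995).

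Adar and Samhd1 encode enzymes that limit the response to self nucleic acids. Adar (ENSMUSG00000027951, chromosome 3, 89715022 to 89753446), whose enzyme converts adenosine to inosine in double-stranded RNA, ran from 25.5 (TBT 8) through 47.0 to 55.7 CPM in TBT and from 35.04 through 42.0 to 59.3 CPM in vehicle blood. Its highest value belonged to vehicle 3, and its log2 fold change was 0.03 (95% interval -0.28 to 0.34, edgeR adjusted p = 0.994). Adar has a constitutive and an interferon-inducible promoter, which counts per gene do not separate, and Chrnb2 overlaps it on the opposite strand. Samhd1 (ENSMUSG00000027639, chromosome 2, 157097533 to 157135265), a deoxynucleotide triphosphohydrolase that is abundant in myeloid cells, had TBT values of 261 (TBT 8), 359 and 467 CPM (TBT 3) and vehicle values of 269, 320 and 394 CPM as the lowest, median and highest. Its log2 fold change of 0.14 (SE 0.167, edgeR adjusted p = 0.964) lay within the spread, and was 0.075 without TBT 3 and 0.085 without TBT 5.

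**Figure D2:**
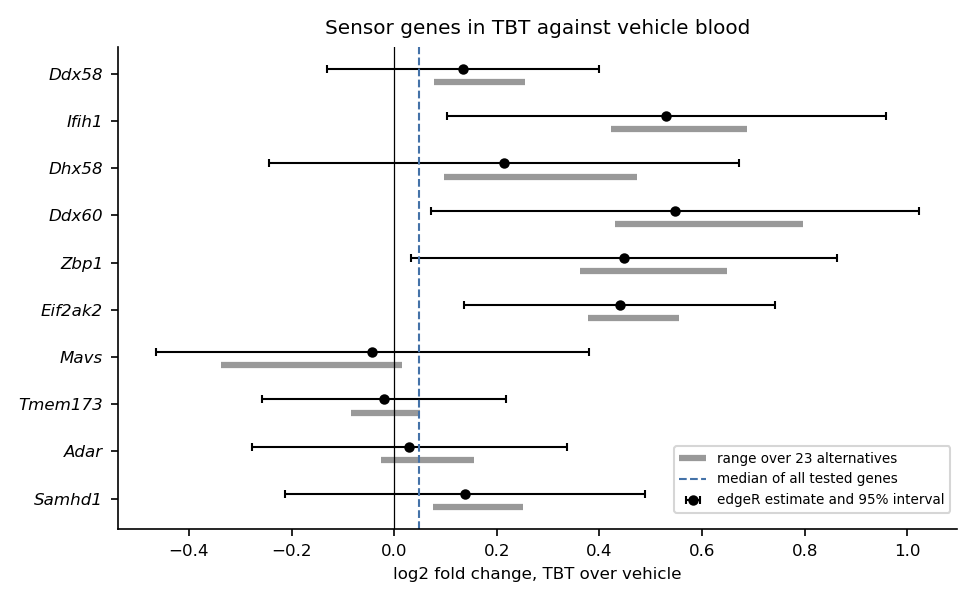
Log2 fold change of TBT over vehicle (x axis) for each gene (y axis): points and thin bars are the edgeR estimate with its 95% interval, grey bars the range over 23 alternative analyses, and the dashed line the median of all tested genes (0.05). The intervals of Ifih1, Ddx60, Zbp1 and Eif2ak2 lie above 0 before adjustment, and the grey bars of Mavs, Tmem173 and Adar cross 0.

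Seen by library, the sensor genes tended to be high or low together. TBT 3, TBT 4 and TBT 5 lay on average 0.49, 0.47 and 0.43 log2 units above the vehicle mean over the 10 genes, the highest of all TBT libraries, and TBT 8 lay at -0.21. TBT 3 held the highest TBT value in 5 of the genes and TBT 4 in 3, while TBT 8 held the lowest in 6. In the vehicle group, vehicle 3, the animal with the tumor label, held the top value in 8 of the 10 genes and a mean distance of 0.44. This single animal stood at 13.9 CPM of Dhx58 beside 6.76 ± 1.63 CPM in the other 6 vehicle animals (SD, n = 6). It held 26.0 CPM of Ifih1 beside 13.8 ± 2.66 CPM. Its Tmem173 (20.4 CPM) and Mavs (14.6 CPM) lay inside the range of the other vehicle animals. With 1 such animal there is no test of the tumor label.

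Without vehicle 3, 5 of the 10 genes had an edgeR p under 0.05 (Dhx58 in addition), beside 6.95% of all genes in that fit, and none passed the adjustment (smallest adjusted p = 0.521). Without TBT 2, TBT 8 and vehicle 6 there were 6, namely Ddx58, Ifih1, Zbp1, Eif2ak2 and Ddx60 on the higher side and Mavs on the lower, beside 17.0% of all genes in that fit, and the smallest adjusted p was 0.0816 (Eif2ak2). The number was 2 (Eif2ak2 and Ifih1) without TBT 4, TBT 5, vehicle 2, vehicle 4 or vehicle 6, beside 4.67% to 5.39% of all genes in those fits.

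Marker genes of blood cell types were read in the same fit. All 10 monocyte markers had positive log2 fold changes (median 0.22, none at p under 0.05 in edgeR), beside 59.4% of all genes tested. F13a1 and Lyz2 were above the vehicle median in only 2 and 3 of 8 TBT libraries, and the other monocyte markers in 5 or 6. The summed level of the monocyte markers was 1055 to 2427 CPM in TBT and 1040 to 1883 CPM in vehicle blood, with vehicle 3 the highest vehicle library. In CPM of all counts the sums were 751 to 2340 in TBT and 935 to 2560 in vehicle blood, with vehicle 3 the highest library of both groups. The 10 neutrophil markers summed to 361 to 789 CPM in TBT and 423 to 1070 CPM in vehicle blood. Of 8 plasmacytoid dendritic cell markers, a cell type known for strong interferon production, 4 of 6 tested had a positive log2 fold change, 1 of them with an unadjusted edgeR p under 0.05 (Siglech, 0.77), and the sums were 125 to 284 and 183 to 226 CPM. Of the tested B cell markers 0 of 10 had a positive log2 fold change, with 1 at an unadjusted p under 0.05 (Fcer2a, -0.42). Of erythroid markers 9 of 10 had one on the TMM scale (median 0.22), but Hba-a1 was above the vehicle median in only 2 of 8 TBT libraries. Haemoglobin took on average 36.1% of all counts in TBT and 36.2% in vehicle blood. Positive values were found in 7 of 10 platelet, 6 of 8 neutrophil, 5 of 10 T cell and 7 of 10 natural killer cell markers. Each of the 10 platelet markers was above the vehicle median in only 2 of 8 TBT libraries. Every marker gene had counts in some library. Gene models of the TEC and sense intronic classes, which hold provisional or intronic transcripts, took 0.119% to 0.526% of counts in TBT and 0.184% to 0.377% in vehicle blood. None of 23 library measures passed an exact permutation test (two-sided, adjusted p from 0.984 to 0.994), and their part in the sensor values was not tested.

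**Figure D3:**
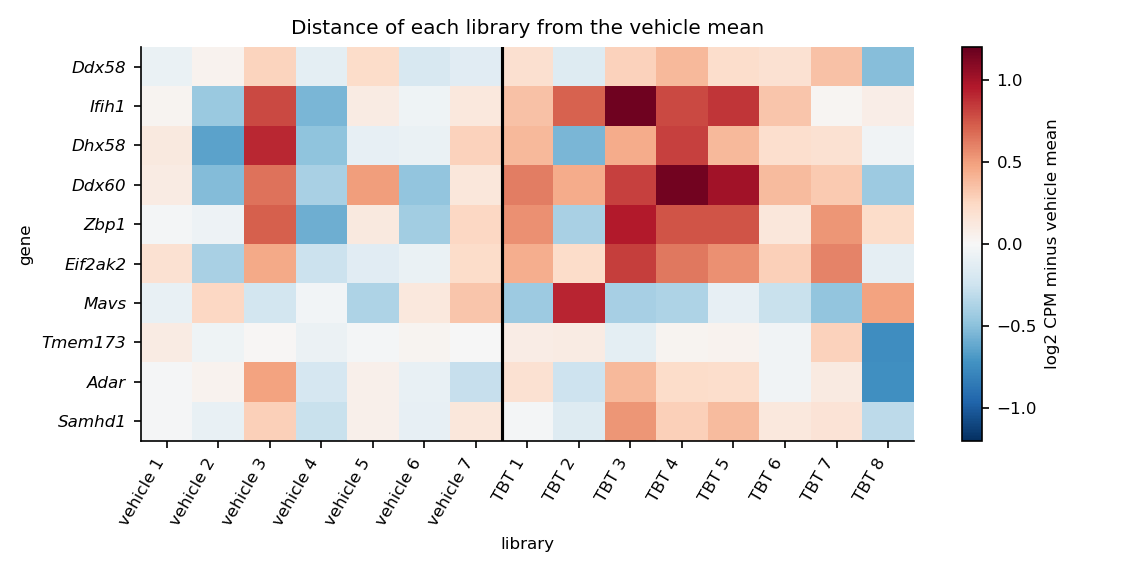
Log2 CPM of each gene (rows) in each library (columns) less the vehicle mean of that gene, from blue (lower) to red (higher). Vehicle 3, TBT 3, TBT 4 and TBT 5 are red across most rows, and TBT 8 is blue in most rows and red for Mavs on this TMM scale, but lowest of the TBT group for Mavs in CPM of all counts.

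Relations between the genes were measured on log2 CPM after the mean of each group had been removed, so that the exposure contrast does not enter. Of 45 pairs, 30 passed a permutation test (Pearson, Benjamini-Hochberg adjusted p under 0.05 over the 45 pairs), 26 with a positive and 4 with a negative r, and 28 passed by Spearman's rho. All 36 pairs that do not involve Mavs had a positive r over the 15 libraries, and all 9 pairs with Mavs a negative r. The sign of the Mavs pairs depended on the scaling: in log2 CPM of all counts, an alternative chosen after seeing the data, all 9 were positive (r from 0.59 to 0.70) and all 45 pairs passed. The genes share libraries, depth and scaling, and libraries that stand apart weigh heavily: 10 pairs passed without the 2 libraries farthest from the median, and 14 without TBT 2, TBT 8 and vehicle 6. All of these pairs were among the 30. The 2 farthest libraries were chosen anew for each pair, from the group-centred values of a single gene of the pair. They were therefore not the same for all pairs.

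Several of the pairs kept their r in the reduced sets. Dhx58 and Eif2ak2 had r = 0.81 and rho = 0.89 (permutation p = 0.00058 and 5e-05, adjusted p = 0.00349 and 0.00113), r = 0.80 without the 2 farthest libraries (adjusted p = 0.0278) and r = 0.86 without TBT 2, TBT 8 and vehicle 6. Ifih1 and Ddx60 had r = 0.79 and rho = 0.83 (permutation p = 0.00041 and 0.00015, adjusted p = 0.00349 and 0.00169). This pair had r = 0.78 without its own 2 farthest libraries and 0.86 without TBT 2, TBT 8 and vehicle 6. Within the groups the r of this pair was 0.75 in TBT (n = 8) and 0.85 in vehicle blood (n = 7).

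Samhd1 followed the same libraries. With Zbp1 it had r = 0.82 and rho = 0.88 (permutation p = 0.00024 and 0.0001, adjusted p = 0.00349 and 0.0015), and r = 0.78 without the 2 farthest libraries. Ddx58 and Adar had the highest r of the 45, 0.91, with rho = 0.90 (permutation p = 8e-05 and 2e-05, adjusted p = 0.0018 and 0.0009) and r = 0.73 without the 2 farthest. On the TMM scale Mavs had with Ddx58 r = -0.79 and rho = -0.825 (permutation p = 0.00578 and 0.00068, adjusted p = 0.0137 and 0.00392), and r = -0.64 without the 2 farthest libraries (adjusted p = 0.141). Without TMM the r of this pair was 0.66. Tmem173 passed with none of the other 9 genes (adjusted p from 0.0678 to 0.739).

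**Figure D4:**
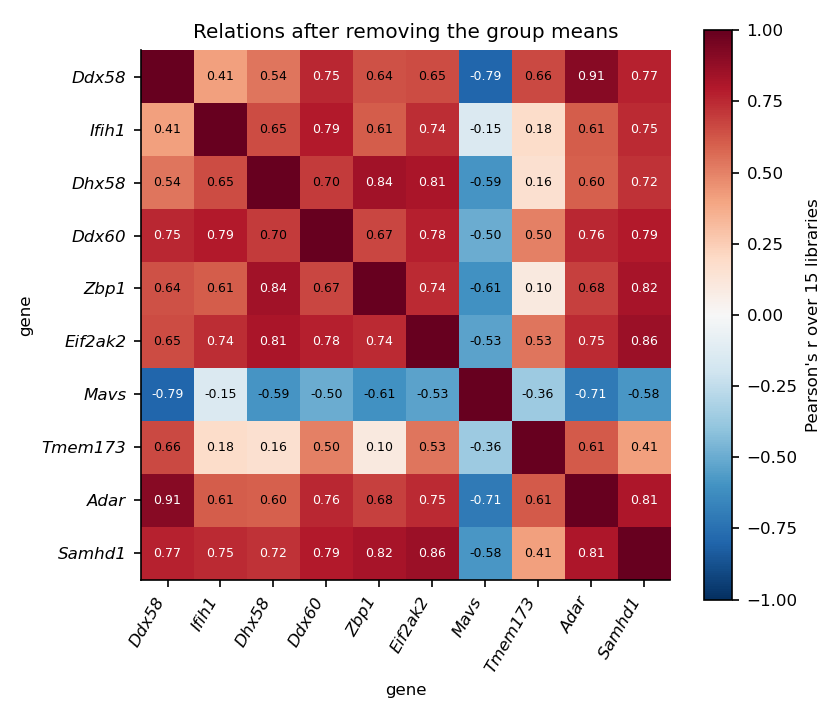
Pearson's r between each pair of genes (rows and columns) over 15 libraries, with group means removed, from -1 (blue) to 1 (red); the diagonal is 1 by construction. The row of Mavs is negative throughout on this TMM scale, from -0.79 with Ddx58 to -0.15 with Ifih1, but positive throughout in CPM of all counts, and the row of Tmem173 is the palest of the positive rows.

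The genes outside the 10 that were most like 4 of them over the 15 libraries, with group means removed, were picked by the highest r among 11139 protein-coding genes, so these values describe and carry no test. For Ifih1 they were Apobec1 (r = 0.90, rho = 0.83), Ms4a6d (0.87, 0.78) and Dgkh (0.87, 0.84). Zbp1 was most like Ifi204 (0.90, 0.86), itself an interferon-induced DNA-binding gene, Api5 (0.90, 0.80) and Rnf213 (0.90, 0.89). The closest to Samhd1 were Il17ra (0.96, 0.94), Cyth4 (0.94, 0.96) and Ets2 (0.94, 0.94). On the TMM scale, those of Mavs were Gtdc1 (0.96, 0.89), Npepps (0.95, 0.90) and Daam1 (0.95, 0.92).

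Other genes of the pathway were read from lists, with 0 called higher and 0 called lower after adjustment. Of 72 tested genes in 6 lists, 49 (68.1%) had a positive log2 fold change (median 0.07), and 6 higher and 1 lower had an unadjusted p under 0.05. Over all genes tested 59.4% were positive. An unadjusted edgeR p under 0.05 was found in 6.33% of them in either direction and in 4.57% on the higher side. The medians of the 6 lists lay between 0.05 and 0.10, near the 0.05 of all genes. The IFIT and OAS genes, interferon-induced effectors that bind foreign RNA, had 12 of 13 tested members positive, a median of 0.55 and 5 at an unadjusted p under 0.05. Of the positive members, Ifit2 (0.04) was above the vehicle median in only 2 of 8 TBT libraries. Among them Ifit1 stood at 24.1 ± 7.97 CPM in TBT and 15.5 ± 3.50 CPM in vehicle blood (0.61, edgeR adjusted p = 0.676, or 0.38 without TBT 2, TBT 8 and vehicle 6), and Oasl2 at 68.1 ± 22.1 and 39.2 ± 18.3 CPM (0.79, edgeR adjusted p = 0.708).

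Among partners of the RNA sensors, 8 of 11 tested genes were positive. Zc3hav1, an antiviral zinc finger protein, stood at 160 ± 28.8 and 134 ± 12.95 CPM (0.25, edgeR adjusted p = 0.812), with all 8 TBT libraries above the vehicle median. With TBT 2 left out its log2 fold change was 0.16, and with TBT 8 and vehicle 6 also left out 0.10. The helicase gene Dhx36 stood at 39.6 ± 5.23 and 36.4 ± 3.06 CPM (0.12, or 0.074 without TBT 5). In the relay from MAVS and STING to transcription, 11 of 16 were positive and 3 had p under 0.05. These were the TBK1 scaffold genes Tank (53.0 ± 7.98 and 44.4 ± 3.17 CPM, 0.25) and Azi2 (42.7 ± 2.84 and 37.4 ± 3.16 CPM, 0.19) and the interferon-induced transcription factor gene Irf7 (72.1 ± 32.9 and 50.4 ± 13.7 CPM, 0.51, or 0.28 without TBT 2 alone and 0.24 without TBT 2, TBT 8 and vehicle 6). The kinase gene Tbk1 had a log2 fold change of 0.07, and Irf3, the constitutive factor of the same relay, stood at -0.21 (-0.095 without TBT 2, TBT 8 and vehicle 6), with 0 of 8 TBT libraries above the vehicle median (edgeR adjusted p = 0.864).

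In the DNA arm, 8 of 14 tested genes were positive. The cytosolic DNA sensor gene Cgas was scarce, at 3.46 ± 1.04 CPM in TBT and 2.93 ± 1.14 CPM in vehicle blood (0.24, edgeR adjusted p = 0.960), with 0.16 without vehicle 1 and 0.45 without vehicle 3. Aim2, which senses DNA for the inflammasome, stood at 44.6 ± 4.08 and 38.7 ± 3.05 CPM (0.20, edgeR adjusted p = 0.731), and Xrcc6 at 6.34 ± 1.08 and 7.42 ± 2.10 CPM (-0.20, or -0.097 without vehicle 7). Trex1, the exonuclease that clears cytosolic DNA, was listed at 0 counts in every library. Its gene model overlaps that of Atrip on the same strand, so the 0 cannot be read as absence of the transcript.

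Inhibitors and effectors showed single genes at low p. Usp18, a brake on interferon signalling that is itself interferon-induced, stood at 9.88 ± 2.18 and 7.26 ± 1.64 CPM (0.45, edgeR adjusted p = 0.725), and the deubiquitinase gene Cyld at 76.4 ± 4.79 and 70.7 ± 3.90 CPM (0.11). Eif2s1, which encodes the PKR substrate eIF2 alpha, stood at 22.3 ± 2.21 and 18.9 ± 1.202 CPM (0.24, edgeR adjusted p = 0.725). Ripk3, the partner of ZBP1, was scarce, at 3.50 ± 0.833 and 3.79 ± 0.539 CPM (-0.08, or 0.0018 without TBT 2, TBT 8 and vehicle 6), and Fadd stood at -0.22, or -0.12 without vehicle 7.

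Of the interferon genes, Ifnb1 and 4 Ifna genes were read, all at or under the limit of detection. Ifna1, Ifna4 and Ifna5 had 0 counts in all libraries, which, taking 3 counts as the limit, allows up to 0.497 CPM of all counts in the shallowest and 0.250 in the deepest, and Ifnb1 and Ifna2 had at most 1 count in any. The chemokine gene Cxcl10 had 1 to 23 counts and was not tested. In interferon output and signalling, 7 of 9 tested genes were positive. Tyk2, which encodes a kinase bound to the interferon receptor, stood at 27.0 ± 4.00 and 33.1 ± 4.01 CPM (-0.28, edgeR adjusted p = 0.725).

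**Figure D5:**
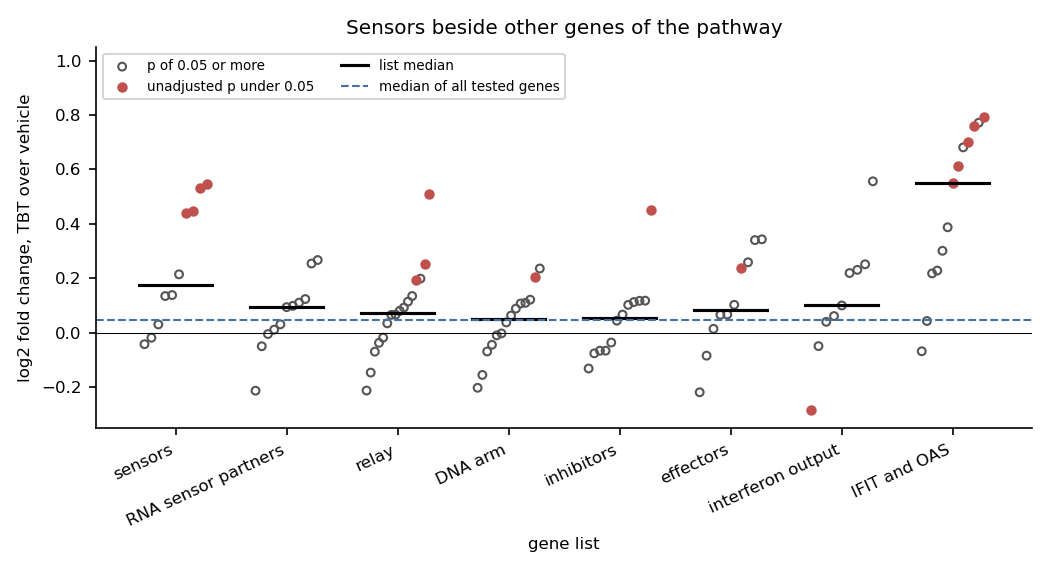
Log2 fold change of TBT over vehicle (y axis) for every tested gene of the 10 sensors and 7 other lists (x axis), filled red where the unadjusted edgeR p was under 0.05, with each list's median as a black bar and the median of all tested genes (0.05) as a dashed line. The sensors' median is 0.18 and that of the IFIT and OAS genes 0.55, while the other 6 lists lie between 0.05 and 0.10.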

How the data were processed

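Whole-blood RNA of 15 mice was sequenced from Illumina TruSeq Stranded Total RNA libraries, per the labels' protocols. The submitters' processing notes name Trim Galore, HISAT2, featureCounts and the build mm10, without giving their roles; tool versions, annotation and strand option were not given in the sources used here. Raw whole-number counts were deposited by the authors. Columns were matched to animals by sample descriptions, and 55450 of 55536 gene identifiers were found in GENCODE M21 (GRCm38), which gave coordinates and exon lengths.

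Genes were kept with filterByExpr and compared in edgeR 4.0.16 (R 4.3.3) by the quasi-likelihood test with TMM scaling, no covariate and Benjamini-Hochberg adjustment at 0.05 over 13364 genes. The SE comes from the F statistic. CPM are TMM-scaled unless said otherwise, and log2 CPM used a prior count of 2. The median 95% interval spanned 0.41 log2 units on either side. Pairs were tested with 100000 permutations within groups, and library measures by exact permutation over 6435 splits. The code was tested on simulated data. Replicate numbers are not said in the labels to pair the animals, and the main fit did not pair them.

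The 10 genes and the lists were chosen with earlier results of these data known. Likeness was named for the 3 genes of highest r. Named pathway genes were the 2 with the smallest p of each list and Cgas, Tbk1, Irf3, Irf7, Ifnb1, Cxcl10, Trex1 and Ripk3; some genes that this rule names are not reported here. Alternatives were RLE and upper-quartile scaling, TMM without haemoglobin genes, no filter, DESeq2 1.42.0, limma-voom (limma 3.58.1), a replicate block and leaving out libraries.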

Additional observations from a re-analysis of the deposited data

Results flagged for a closer look

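An animal was set apart where its gap to the nearest animal of its group was large beside the range of the group (Dixon's criterion at 95%), which chance meets in about 1 of 20 groups. Of 46 groups of values examined, 6 met it. Vehicle 3, the mouse labelled with a liver tumor, had 26.0 CPM of Ifih1, beside 16.3 CPM in the next vehicle animal, and 59.3 CPM of Adar, beside 44.4 CPM. Its monocyte markers were also the highest of the group, at 2560 summed CPM of all counts beside 1634. TBT 8 had 11.96 CPM of Tmem173, beside 18.6 CPM in the next TBT animal. Neutrophil markers reached 1164 summed CPM of all counts in vehicle 5, beside 698, and hepatocyte markers reached 774 in TBT 1, beside 242. In the vehicle group the hepatocyte markers reached 792 in vehicle 4 and 416 in vehicle 7.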

How the results depend on the processing

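No sensor gene and no listed pathway gene passed the adjusted threshold in any of the 23 alternatives. The count of genes called over the whole table, 0 in edgeR (846 at an unadjusted p under 0.05), was 2 without a filter, 13 with DESeq2, 22 with limma-voom, 1 with the replicate block and 7 without TBT 2, TBT 8 and vehicle 6. The sensor genes at an unadjusted p under 0.05 were 8 with limma-voom, where 19.97% of all genes were, and 2 to 5 with each library left out. Relations between the genes passed in 10 pairs without the 2 farthest libraries of each pair and in 14 without TBT 2, TBT 8 and vehicle 6. All 45 pairs passed in CPM of all counts, an alternative chosen after seeing the data, with the 9 Mavs pairs turned positive. Of 644 single-gene values, 15 changed sign. With each library left out Mavs ranged from -0.23 to 0.014, Tmem173 from -0.084 to 0.042 and Adar from -0.026 to 0.10. Tmem173 was 0.016 with limma-voom, 0.051 with the replicate block and 0.049 without TBT 2, TBT 8 and vehicle 6. Ripk3 was 0.021 with limma-voom and 0.0018 without those 3 libraries. The cause was not tested. Same-numbered animals of both groups correlated from -0.23 to 0.51 in their deviations, and the block left all sensor calls as they were. Depth limits Cgas, Ripk3 and the interferon genes, which had few or no counts.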

Other observations

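The promoter windows of other pathway genes were searched for the same letters, GAAANNGAAA. The longer form was present in 9 of 12 IFIT and OAS genes with a window, in 7 of 13 genes of interferon output and signalling and in 3 of 8 effector genes. It was in 0 of 11 RNA sensor partners, 0 of 14 relay genes, 0 of 12 genes of the DNA arm and 0 of 8 inhibitors. These counts describe short windows in an incomplete table.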
